A study of Mus musculus with 6 samples.

Results

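The 14-3-3 proteins are small adaptor proteins that bind, as dimers, to serine or threonine residues that a kinase has phosphorylated, and so hold their client proteins in one place or one state. In the arrested mouse oocyte they are known for holding the phosphatase CDC25B in the cytoplasm after protein kinase A has phosphorylated it, which keeps the cyclin B1-CDK1 kinase inactive until meiosis resumes. Ribosome footprints, the short mRNA fragments that a translating ribosome shields from nuclease, were examined here for the 6 members of the family that were selected by gene name: Ywhab (14-3-3 beta), Ywhae (epsilon), Ywhag (gamma), Ywhah (eta), Ywhaq (theta) and Ywhaz (zeta). All 6 were among the 22416 genes of the table, and 5 had at least 1 read. A seventh paralog, Sfn (14-3-3 sigma), was read beside them and is not counted as a member.

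The study asked how a ligand of RNA G-quadruplexes (rG4s, folded structures of guanine-rich RNA) acts on oocyte maturation. Footprints were collected with Ribo-lite, a form of ribosome profiling scaled down to few cells, from 6 libraries in 3 groups of 2, each prepared from 500 pooled oocytes of 4-week-old female mice of wild-type genotype that had been primed with PMSG for 44 h. The groups were fully grown oocytes arrested with an intact germinal vesicle (WT_FGO, labelled as controls), control oocytes at metaphase II (WT_MII) and treated oocytes at metaphase II (Treat_MII). The labels call the last group only "Treat". In the study's methods the treatment is BYBX, dissolved in DMSO and added to M16 medium. Per the same methods, control oocytes of both stages received DMSO at an equal concentration. Milrinone, which holds oocytes at the germinal vesicle stage, was used in some experiments, and the labels do not say in which. Separate pools are not described as coming from separate animals, so p-values measure only the spread between these libraries. Levels in the 2 libraries of a group were related at a Spearman's rho of 0.50 in WT_FGO, 0.61 in WT_MII and 0.73 in Treat_MII.

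Levels were deposited as FPKM, footprints per kilobase of coding sequence and per read of the library at a fixed scale, so each level is relative to its own library and a change in total footprints per oocyte cannot be seen. The FPKM were whole multiples of what 1 read is worth, and the libraries came to 94309 and 107251 reads (WT_FGO), 164972 and 230907 (WT_MII) and 331304 and 275604 (Treat_MII). A gene of family size was therefore read from as few as 1 and as many as 256 footprints. Markers of oocytes were present in every library, with 10 or 11 of 11 markers above 0. Those of granulosa or cumulus cells summed to 851 and 1642 FPKM in WT_FGO, 2062 and 385 in WT_MII and 297 and 331 in Treat_MII, with Tnfaip6 at 0 in all 6. Among them Inha stood at 747 FPKM in WT_FGO_2 and between 0 and 29.0 FPKM in the other 5 libraries, and Hsd17b1 at 1956 FPKM in WT_MII_1 and between 202 and 730 FPKM elsewhere. Markers of blood or other somatic cells summed to 76.2 and 71.9 FPKM in WT_FGO, 15.5 and 31.8 in WT_MII and 29.3 and 38.9 in Treat_MII, with Hbb-bs at 0 in all 6.

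The members resemble each other in coding sequence, and some also resemble loci outside the family, which bears on how well short footprints can be told apart. The stretch below was taken from the coding sequences of the 6 genes in the mouse GRCm38 genome with GENCODE M21, and it is shown because it is as long as a footprint and close to identical in all 6. Capitals mark the 23 of 28 bases that are the same in every member. It lies at coding bases 40 to 67 in Ywhab, 37 to 64 in Ywhae, Ywhag and Ywhah, and 34 to 61 in Ywhaq and Ywhaz.
Ywhab: CTGGCtGAGCAGGCtGAGCGcTAtGAtG
Ywhae: CTGGCaGAGCAGGCcGAGCGaTAcGAcG
Ywhag: CTGGCcGAGCAGGCgGAGCGcTAcGAcG
Ywhah: CTGGCgGAGCAGGCgGAGCGcTAcGAcG
Ywhaq: CTGGCcGAGCAGGCcGAGCGcTAcGAcG
Ywhaz: CTGGCcGAGCAGGCaGAGCGaTAtGAtG
Each of these 6 words differs from the others. The Ywhaq word was found at 2 other places in the genome and the Ywhaz word at 1, whereas those of Ywhab, Ywhae, Ywhag and Ywhah were found only in their own gene.

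Over the whole coding sequence, the members were between 61.3% and 79% identical in aligned bases. Ywhag and Ywhah were the closest pair at 79%, and Ywhae stood farthest from the rest, at 61.3% to 63.1%. The overlap with other loci differed much more. None of the 28-base coding words of Ywhab or Ywhae occurred elsewhere in the genome or in transcripts of other genes, and 0.42% of those of Ywhag did, all shared with Ywhah. For Ywhah the share was 65.4%, for Ywhaz 96.9%, for Sfn 70% and for Ywhaq 100%. The words of Ywhaq recurred at 9 other loci and in transcripts of 12 other genes, among them the pseudogenes Ywhaq-ps2 and Ywhaq-ps3, and those of Ywhaz recurred at 3 loci.

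**Figure D1:**
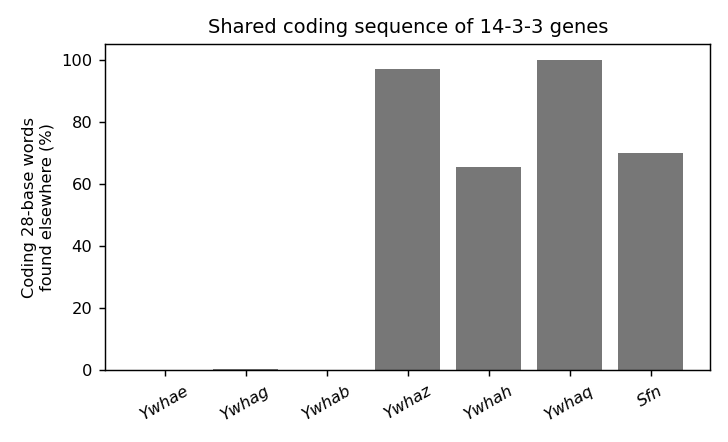
Share of the 28-base words in each coding sequence that also occur elsewhere in the mouse genome or in transcripts of other genes, in percent, for the 6 members and Sfn (bars). Ywhae, Ywhag and Ywhab stand at or near 0, Ywhah and Sfn at 65.4% and 70%, and Ywhaz and Ywhaq at 96.9% and 100%.

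How the authors treated reads that match several places is not given in the sources used here. Over 1097 genes with at least 95% of their coding words in transcripts of other genes, 83.7% were listed at 0 in all 6 libraries, against 13% of 12865 genes with no such word. Ywhaq and Ywhaz fall in the first of these classes. Ywhah and Sfn, with 65.4% and 63.3% of their words in transcripts of other genes, fall between the 2 classes. Over the 7317 genes there, 34.1% were listed at 0 in all 6 libraries, against 23.9% of all genes. The levels of Ywhaq, Ywhaz, Ywhah and Sfn are therefore uncertain, and the results below turn on Ywhae, Ywhag and Ywhab.

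Ywhae carried the most footprints of the family in every library. The gene lies on the plus strand at chr11:75732869-75765845 (GRCm38). The fully grown oocytes had 676 and 983 FPKM (55 and 91 reads), the control metaphase II oocytes 850 and 1049 (121 and 209 reads) and the treated oocytes 895 and 1022 (256 and 243 reads). The 3 groups overlapped, and the 2 fully grown libraries lay farther apart than any 2 group means. Group means were 829 ± 217, 949 ± 141 and 959 ± 89.3 FPKM (SD, n = 2 each), which ranked 119, 114 and 115 among the 15127 genes tested. The coding length behind these values was 863 bases, against 765 bases in the longest transcript, so that per base of that transcript the level would be 1.13 times as high.

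Ywhag was second in every library. It lies on the minus strand at chr5:135908409-135934616. WT_FGO gave 544 and 566 FPKM (38 and 45 reads), WT_MII 90.0 and 140 (11 and 24 reads) and Treat_MII 326 and 201 (80 and 41 reads). The fully grown oocytes were highest, the control metaphase II oocytes lowest, and the treated oocytes stood between them, with no overlap between any 2 groups. Group means were 555 ± 15.9, 115 ± 35.6 and 263 ± 88.5 FPKM (SD, n = 2 each), at ranks 182, 957 and 447.

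Ywhab was seen mainly in fully grown oocytes. It lies on the plus strand at chr2:163994960-164018588. It stood at 158 and 177 FPKM in WT_FGO (11 and 14 reads), had 0 reads in both WT_MII libraries, and stood at 8.18 and 14.7 FPKM in Treat_MII (2 and 3 reads). Zero reads in WT_MII allow a level of up to 24.6 and 17.6 FPKM, taken as 3 reads in that library; this and every interval on reads cover counting error only. The treated libraries were thus at or under 3 reads themselves, and the whole difference between the groups at metaphase II rests on 5 reads.

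The other members were read from a handful of footprints. Ywhaz (minus strand, chr15:36770770-36796929) stood at 0 and 38.1 FPKM in WT_FGO. It had 74.2 and 17.7 FPKM in the WT_MII libraries and 24.6 and 44.4 in the treated ones, from at most 9 reads a library. The 3 groups overlapped. The highest Ywhaz value was in WT_MII_1, the library with the highest granulosa and cumulus marker sum. Of that sum of 2062 FPKM, 1956 came from Hsd17b1. Without Hsd17b1 the sum was 106 FPKM in WT_MII_1 and between 95.3 and 1154 FPKM in the other libraries. The part of those cells in the Ywhaz value was not tested. Ywhah (plus strand, chr5:33018816-33027966) had 2 reads in WT_FGO_1, 1 in WT_MII_1, 1 in Treat_MII_1 and 0 in the other 3 libraries. Ywhaq (minus strand, chr12:21390071-21417637) was listed at 0 in all 6, which allows 40.5 and 35.6 FPKM in WT_FGO, 23.1 and 16.5 in WT_MII and 11.5 and 13.8 in Treat_MII if its footprints were counted at all. Sfn (minus strand, chr4:133600556-133602168) had 1 read in 1 library of each group.

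**Figure D2:**
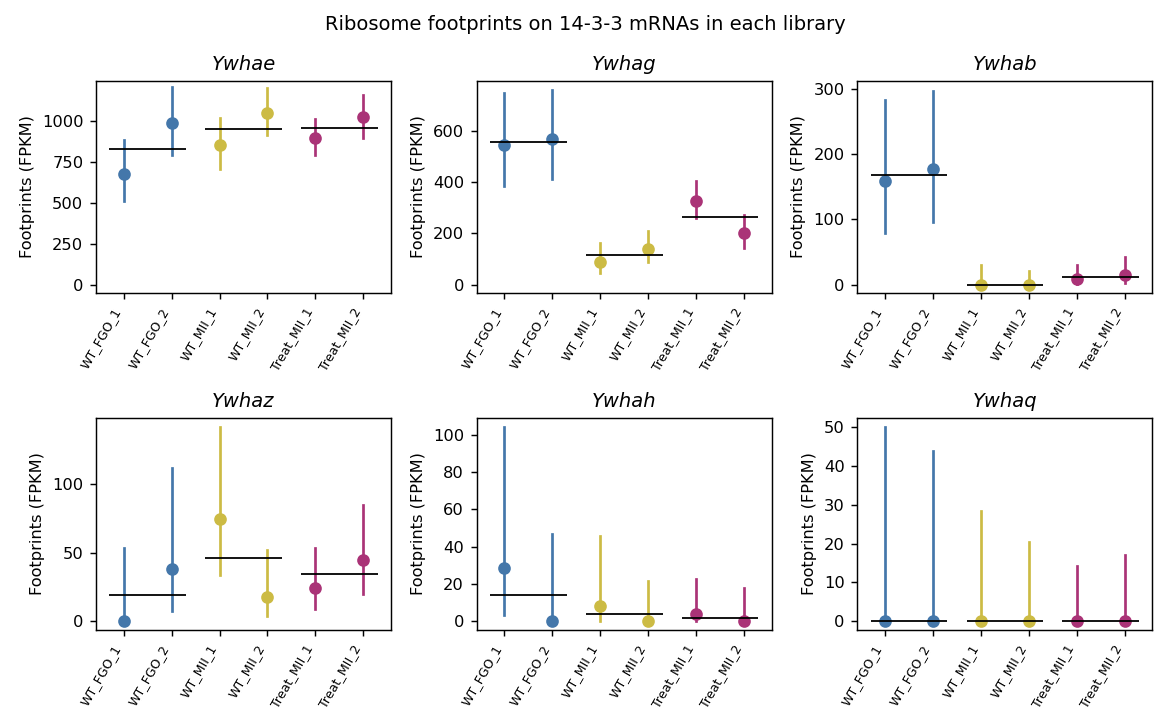
Footprints on the 6 members in each library, in FPKM on linear axes that differ between panels; points are libraries, vertical lines are exact 95% counting intervals and black lines are group means. Ywhae overlaps between all groups, Ywhag is highest in WT_FGO, lowest in WT_MII and between them in Treat_MII, and Ywhab is at 0 in both WT_MII libraries.

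The order of the members, on the FPKM scale, differed between groups below the first 2 places. Ywhae was above Ywhag and Ywhag above every other member in both libraries of each group. In fully grown oocytes Ywhab came next, above Ywhaz in both libraries, while Ywhaz, Ywhah and Ywhaq could not be separated. At metaphase II Ywhaz came next after Ywhag in both groups, above Ywhab. Ywhab, Ywhah and Ywhaq overlapped in WT_MII, and in Treat_MII Ywhab stood above Ywhah in both libraries on counts of 3 reads or fewer.

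Summed over the family, levels were lower at metaphase II than in fully grown oocytes, and the make-up of the sum differed. The 6 members together stood at 1406 and 1764 FPKM in WT_FGO, 1022 and 1207 in WT_MII and 1258 and 1282 in Treat_MII. Both WT_FGO sums were above all others and both treated sums above both WT_MII sums, with group means of 1585 ± 253, 1115 ± 130 and 1270 ± 16.6 FPKM (SD, n = 2 each); no test was run on the sum.

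Ywhae made up 48.1% and 55.7% of the sum in WT_FGO, 83.1% and 86.9% in WT_MII and 71.2% and 79.7% in Treat_MII. Ywhag accounted for 38.7% and 32.1% in WT_FGO, for 8.80% and 11.6% in WT_MII and 25.9% and 15.7% in Treat_MII. Ywhab added 11.2% and 10.03% in WT_FGO, nothing in WT_MII and 0.650% and 1.15% in Treat_MII. Neither the Ywhae nor the Ywhag shares overlapped between any 2 groups. Counted in reads, Ywhae took 55 of 106 family reads in WT_FGO_1 (51.9%, exact Clopper-Pearson 95% interval 42.0 to 61.7%) and 209 of 236 in WT_MII_2 (88.6%, 83.8 to 92.3%), the lowest and highest of the 6 libraries.

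**Figure D3:**
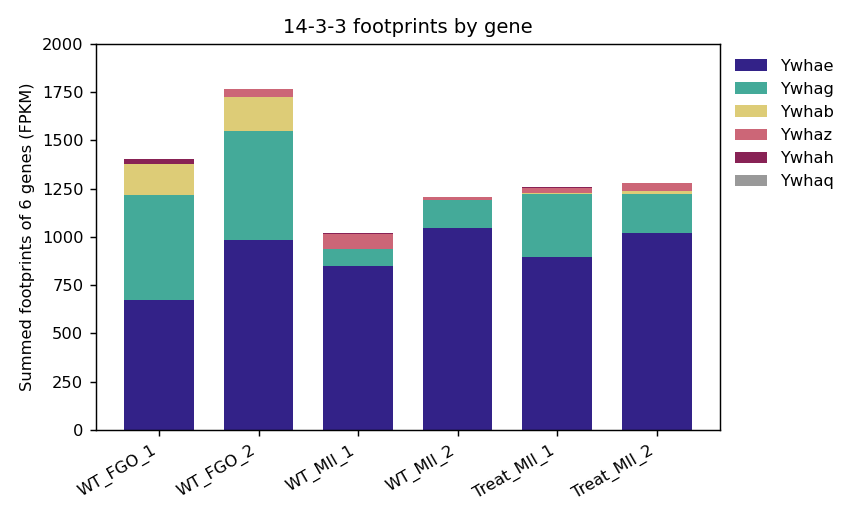
Footprints of the 6 members summed in each library, in FPKM from 0, with each gene as a segment of the bar. The Ywhae segment is between 676 and 1049 FPKM in all 6 libraries, while the Ywhag and Ywhab segments are tallest in the WT_FGO libraries and the Ywhab segment is absent in WT_MII.

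Ratios within a library do not depend on how libraries are scaled against each other. In fully grown oocytes Ywhag reached 0.805 and 0.576 of the Ywhae level, against 0.106 and 0.134 in WT_MII and 0.364 and 0.197 in Treat_MII. The exact 95% counting intervals were 0.518 to 1.24 and 0.394 to 0.832 in WT_FGO, and 0.0515 to 0.196 and 0.0838 to 0.205 in WT_MII, so the 2 stages did not meet. In Treat_MII they were 0.280 to 0.470 and 0.138 to 0.274, above those of WT_MII for the first treated library and overlapping them for the second. Ywhab reached 0.234 and 0.180 of Ywhae in WT_FGO. In WT_MII the ratio was 0 in both libraries, with upper limits of 0.0362 and 0.0208. In Treat_MII it was 0.00914 and 0.0144, with upper limits of 0.0333 and 0.0427. These intervals leave out the spread between pools of oocytes, and no test was run on the ratios. By counting error alone, the changes of Ywhag and of Ywhab from WT_FGO to WT_MII were unequal to that of Ywhae under any scaling between libraries. Between Ywhab and Ywhag this was not seen: their ratio was 0.291 and 0.312 in WT_FGO, with intervals of 0.134 to 0.580 and 0.158 to 0.580, and the upper limits of 0.400 and 0.167 in WT_MII lay within them.

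The first comparison asked which members changed between the germinal vesicle stage and metaphase II in control oocytes. Ywhab and Ywhag fell and Ywhae did not pass the test. Ywhag fell by 2.29 ± 0.38 on the log2(FPKM + 1) scale (SE; limma, Benjamini-Hochberg adjusted p = 0.025), and its mean level was 4.82-fold lower in WT_MII. Its read rate was 4.66-fold lower, with an exact 95% counting interval of 3.10 to 7.13. Ywhab fell from 25 reads to 0 (limma adjusted p = 0.0044). Taken against 3 reads per library, it was at least 7.93-fold lower, and its fitted change of −7.39 ± 0.69 depends on the pseudocount of 1 FPKM.

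For Ywhae the difference was 0.21 ± 0.27 (limma adjusted p = 0.66), with a 95% interval of −0.44 to 0.87. The uncertain members gave −0.85 ± 2.03 for Ywhah and 2.58 ± 1.73 for Ywhaz on the same log2 scale, with limma adjusted p of 0.86 and 0.49 and errors as large as or close to the differences themselves. Of the 5 members tested, 2 were called lower and 0 higher, against 3.09% of all 15127 genes called lower and 3.67% called higher. Both libraries of WT_MII lay below both of WT_FGO for Ywhab and Ywhag, which held for 25.8% of all genes; no member lay wholly above, against 15.3% of all genes. The median difference was −0.85 over the 5 members and −0.44 over all genes tested.

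The Ywhag call was close to the threshold: it was lost when any 1 of the 6 libraries was left out, with values of −2.61 to −1.98 and adjusted p of 0.074 to 0.12, when each library was centred on its median (−1.79, adjusted p = 0.051), and with no filter (0.077), no trend (0.14) or only the compared groups (0.16). The Ywhab call was lost without Treat_MII_1 or without Treat_MII_2 (adjusted p of 0.10 and 0.099) and with only the compared groups (0.12), and was kept without any 1 of the other 4 libraries. In those 3 settings limma called 0 of all 15127 genes in either direction, while between 2858 and 2908 had an unadjusted p under 0.05. With 2 libraries against 2, an exact permutation test of a single gene cannot go below p = 0.33.

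Markers of other cells also differed between these groups. The blood and other somatic marker sum was higher in both WT_FGO libraries than in the other 4, as were Ywhab and Ywhag, while its WT_MII and Treat_MII libraries overlapped. The oocyte marker sum was likewise higher in both WT_FGO libraries than in the other 4. It was 50763.9 and 32668.5 FPKM in WT_FGO, 19190.8 and 23844.2 in WT_MII and 24932.6 and 25154.9 in Treat_MII. The granulosa and cumulus sum without Hsd17b1 was 122 and 1154 FPKM in WT_FGO, 106 and 129 in WT_MII and 95.3 and 127 in Treat_MII. The part of other cells in the changes of Ywhab and Ywhag was not tested.

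The second comparison asked whether treatment during maturation altered the members at metaphase II. No member was called. Ywhag stood 1.18 ± 0.38 higher in Treat_MII on the log2(FPKM + 1) scale, with a 95% interval of 0.25 to 2.11, an unadjusted p of 0.021 and a limma adjusted p of 0.83. Its mean level was 2.29-fold that of WT_MII, and its read rate was 2.26-fold with an exact 95% counting interval of 1.54 to 3.39. For Ywhae the difference was 0.02 ± 0.27, with an interval of −0.64 to 0.67 (limma adjusted p = 1).

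The Ywhab levels in both groups were at or under 3 reads, so no fold change is given for it; its fitted difference of 3.59 ± 0.69 had a limma adjusted p of 0.64. Ywhaz and Ywhah differed by −0.14 ± 1.73 and −0.43 ± 2.03. Of all genes tested, 0% were called higher and 0% lower with treatment by limma, while 882 had an unadjusted p under 0.05. Ywhag and Ywhab were the members for which both treated libraries lay above both control libraries, an arrangement found in 16.2% of all genes, and no member lay wholly below, against 15.6%. The median difference was 0.02 over the members and 0 over all genes tested.

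The third comparison set the treated metaphase II oocytes against fully grown oocytes, and shares its groups with the other comparisons. Ywhab was lower, with 5 reads against 25. The treated libraries had 2 and 3 reads, at or under the 3 reads taken as the floor, so the size of its fold change is uncertain. The fitted Ywhab difference was −3.81 ± 0.69 (limma adjusted p = 0.043), and the read rate was 15.1-fold lower with an exact 95% counting interval of 5.66 to 50.4. That call was lost when any 1 library was left out (values of −4.20 to −3.42, adjusted p of 0.070 to 0.13) and with the replicate number as a block (adjusted p = 0.078).

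Ywhag stood −1.11 ± 0.38 on the log2 scale relative to WT_FGO (95% interval −2.05 to −0.18, limma adjusted p = 0.19), a mean level 2.11-fold lower. For Ywhag, the 3 differences side by side were −2.29 in WT_MII against WT_FGO, −1.11 in Treat_MII against WT_FGO and 1.18 in Treat_MII against WT_MII. Ywhae differed by 0.23 ± 0.27, with an interval of −0.42 to 0.88. Of the 5 members 1 was called lower and 0 higher, against 1% and 2.86% of all genes. Both treated libraries lay below both WT_FGO libraries for Ywhab and Ywhag, as for 28.9% of all genes. No member lay wholly above, against 16.6%. The median difference was −1.11 over the members and −0.53 over all genes.

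**Figure D4:**
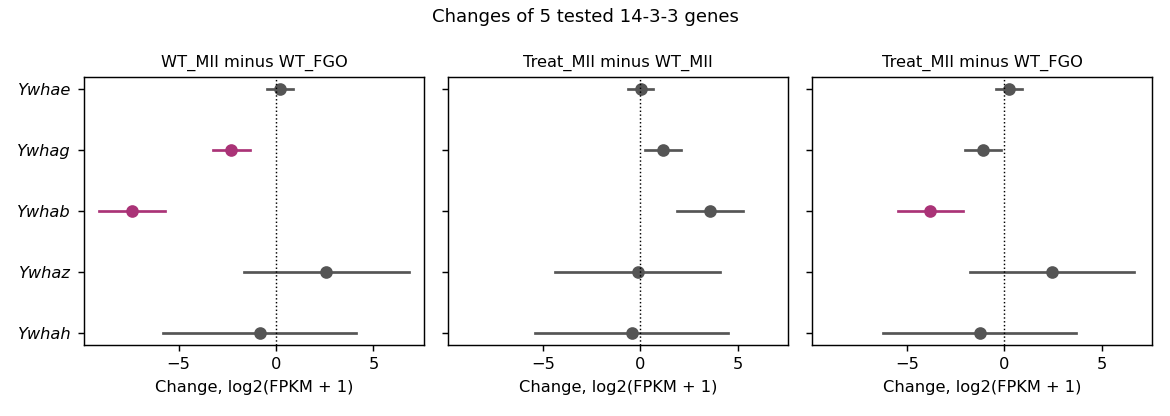
Differences of the 5 tested members in 3 comparisons on the log2(FPKM + 1) scale, with points for limma estimates and lines for 95% intervals from 2 libraries per group; red marks an adjusted p under the threshold of 0.05. Ywhab and Ywhag are called in WT_MII against WT_FGO, no member in Treat_MII against WT_MII, and Ywhab in Treat_MII against WT_FGO; the size of the Ywhab differences depends on the pseudocount.

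Because the treatment is a ligand of rG4s, the transcripts were searched for the letters that can form one. The motif was GGGN(1-7)GGGN(1-7)GGGN(1-7)GGG, that is 4 runs of 3 or more G joined by loops 1 to 7 bases long, read on the strand of the mRNA in the longest coding transcript of each gene. Ywhab held it in its 5′-UTR, at bases 164 to 182 of 409. Ywhag held it at 2 sites in its 3′-UTR, at bases 70 to 90 and 798 to 823 of 2589, counted with the stop codon included. These sites are shown with the G runs in capitals.
Ywhab 5′-UTR: GGGtGGGGcGGGacttGGG
Ywhag 3′-UTR, first: GGGGGtcGGGtGGGGGaGGGG
Ywhag 3′-UTR, second: GGGtgtttGGGaGGGGGctgcGGGGG
No other member held the motif in any region, and no member held it in the coding sequence. Among 14825 tested genes with a coding transcript, 7.59% held it in the 5′-UTR, 4.43% in the coding sequence and 11.6% in the 3′-UTR. With runs of at least 2 G the motif was found in the coding sequence of all 6 members and of 87.4% of genes. A match gives letters only; no structure was measured here.

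The proteins that work with 14-3-3 were read from 3 lists of textbook partners. CDC25B, the phosphatase that 14-3-3 holds in arrested oocytes, had 8 and 10 reads in WT_FGO (47.8 and 52.6 FPKM), 0 and 5 in WT_MII (0 and 12.2 FPKM) and 12 and 4 in Treat_MII (20.4 and 8.19 FPKM). Both WT_FGO libraries were above the other 4, and the fitted difference of −3.82 ± 1.29 at maturation did not pass the test (limma adjusted p = 0.15).

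Of 9 cell cycle partners and targets tested, 3 rose and 1 fell between WT_FGO and WT_MII, and the same 4 genes were called between WT_FGO and Treat_MII. Over all genes, 3.67% were called higher and 3.09% lower at maturation. Cdk1, the kinase at the end of the switch, fell from 452 and 471 FPKM in WT_FGO to 47.6 and 38.9 in WT_MII and stood at 61.0 and 61.1 in Treat_MII (limma, −3.39 ± 0.35 in WT_MII against WT_FGO, adjusted p = 0.0058). Ccnb1, its cyclin partner, had 0 reads in both WT_FGO libraries, 235 and 322 FPKM in WT_MII and 281 and 371 in Treat_MII. That is at least 12.02-fold higher in WT_MII (limma adjusted p = 0.0012), but other genes' transcripts hold 92.4% of its coding words.

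Wee2, the oocyte kinase that inhibits CDK1, rose from 19.1 and 61.6 FPKM to 262 and 505 in WT_MII and stood at 560 and 527 in Treat_MII (limma, 3.36 ± 0.62, adjusted p = 0.033). Cdc25a, a phosphatase related to CDC25B, had 0 reads in WT_FGO. It reached 39.0 and 66.9 FPKM in WT_MII and 83.5 and 84.1 in Treat_MII, which is at least 2.75-fold higher in WT_MII (limma adjusted p = 0.0073). The median difference over these 9 genes, the 5 that were not called included, was −0.55 at maturation, against −0.44 over all genes. In Treat_MII against WT_FGO it was 1.07, against −0.53 over all genes.

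Of 13 tested kinases that can phosphorylate 14-3-3 sites, 2 rose at maturation and 0 fell (3.67% and 3.09% over all genes), with a median difference of 0.83. Chek1, the checkpoint kinase, rose from 81.7 and 170 FPKM in WT_FGO to 645 and 813 in WT_MII and stood at 845 and 910 in Treat_MII (limma, 2.61 ± 0.39, adjusted p = 0.019). Mark2, a polarity kinase, rose from 71.4 and 66.5 FPKM to 346 and 295 and stood at 306 and 273 in Treat_MII, with group means of 69.0 ± 3.48 in WT_FGO and 320 ± 35.9 in WT_MII (SD, n = 2 each; limma adjusted p = 0.015). Both were also called higher in Treat_MII against WT_FGO, where Camk2g, a calcium-dependent kinase, was called lower, from 102 and 89.6 FPKM to 13.7 and 5.51 (limma, −3.30 ± 0.63, adjusted p = 0.049). The Camk2g call was lost with any 1 library left out (adjusted p of 0.052 to 0.11), with the replicate block (0.073) and with quantile normalization (0.063).

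Of 3 tested phosphatases that can remove the phosphate, 1 fell at maturation (3.09% over all genes): Ppp2ca, a catalytic subunit of PP2A, went from 68.6 and 101 FPKM (6 and 10 reads) to 6.54 and 9.34 (1 and 2 reads), and stood at 26.0 and 15.7 in Treat_MII (limma, −3.25 ± 0.60, adjusted p = 0.033). The Ppp2ca call was lost with any 1 library left out (adjusted p of 0.051 to 0.12) and with the replicate block (0.059). With treatment, 0 genes of the 3 lists were called in either direction by limma.

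No partner was called at maturation without Treat_MII_1, without Treat_MII_2 or with only the compared groups, the settings in which limma called 0 of all genes. The Cdk1, Ccnb1, Cdc25a and Mark2 calls at maturation were kept without any 1 of the other 4 libraries. Chek1 was also lost without WT_MII_1 or WT_MII_2 (adjusted p of 0.12 and 0.14), and Wee2 without WT_FGO_1, WT_MII_1 or WT_MII_2 (0.096, 0.14 and 0.20). In Treat_MII against WT_FGO, Cdk1 and Ccnb1 were kept without any 1 library and Cdc25a was lost without Treat_MII_1 or Treat_MII_2 (0.065 and 0.060). There Mark2 and Chek1 were lost without any 1 library of WT_MII or Treat_MII (adjusted p of 0.059 to 0.10 and 0.094 to 0.20), and Wee2 was lost without any 1 library other than WT_FGO_2 (0.074 to 0.26).

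**Figure D5:**
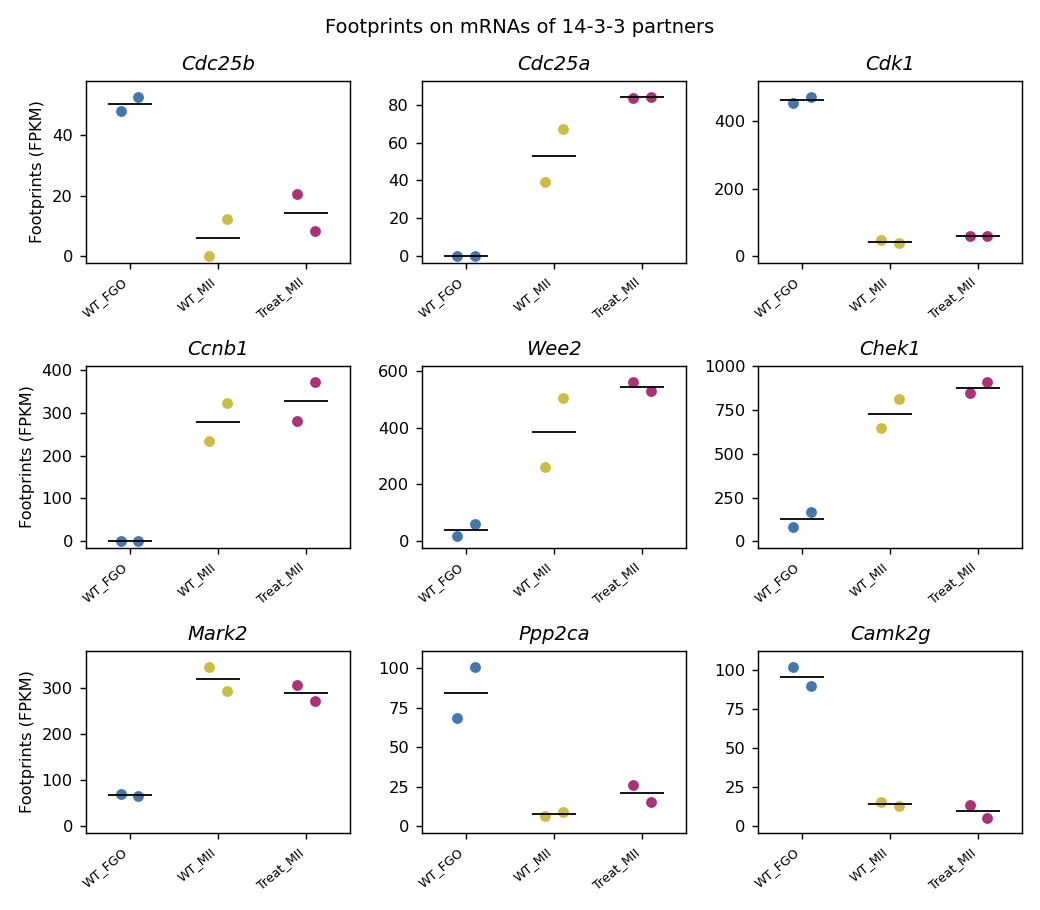
Footprints on 9 named 14-3-3 partners in FPKM on linear axes that differ between panels; points are libraries and black lines are means of 2. Cdc25b, Cdk1, Ppp2ca and Camk2g are highest in WT_FGO, and Cdc25a, Ccnb1, Wee2, Chek1 and Mark2 are lowest there.

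The genes whose pattern over the 6 libraries was most like that of a member were ranked by Pearson's r on log2(FPKM + 1) among 2114 genes that averaged 50 FPKM or more, as a description. Closest to Ywhab were Elobl (r = 0.996) and Fbxw18 (r = 0.994), closest to Ywhag were Cpeb1 (r = 0.995) and Nudt5 (r = 0.993), and closest to Ywhae were Gng12 (r = 0.967) and Msmo1 (r = 0.966). Cpeb1, a regulator of cytoplasmic polyadenylation in oocytes, stood at 579 and 658 FPKM in WT_FGO, 155 and 205 in WT_MII and 363 and 275 in Treat_MII. In both genes the first treated library was the higher of the pair. All of these points share 3 groups and 6 libraries, so each r rests on few independent values.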

How the data were processed

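Per the labels, footprints were trimmed with cutadapt 1.14 and placed with Bowtie2 2.2.2 and STAR 2.5.3a on mm10; the authors deposited FPKM for each library, and neither the annotation, the counting program nor any collapsing of molecular identifiers is given in the sources used here. Of 22442 entries, 26 were dropped because their gene name recurred. Reads were recovered from FPKM and GENCODE M21 coding lengths: 97.8% of 16272 matched genes above 0 gave whole numbers in all 6 libraries (within 0.02 reads). The 15127 genes that averaged 1 FPKM or more were tested with limma 3.58.1 (R 4.3.3, trended eBayes) on log2(FPKM + 1), with 3 groups and 6 libraries in 1 model, a two-sided test and Benjamini-Hochberg adjustment over all genes. The script was tested on simulated data. Alternatives were pseudocount, filter, scaling, trend, read-based weights, a replicate block, the compared groups alone and each library left out. Coding identity was computed in place of protein identity. Partners were named if called (at most 6 a list and comparison), Cdc25b and Sfn always, and 2 genes most like each member. A further list of other 14-3-3 clients is not reported here. The members and lists were chosen with earlier results of these data known. Lists of 11 oocyte, 11 granulosa or cumulus and 5 blood or other somatic markers were summed.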

Additional observations from a re-analysis of the deposited data

How the results depend on the processing

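Of 225 member values (log2 differences of the 5 tested members under 15 alternatives in 3 comparisons), 185 kept direction and side of the threshold. Most of these values were not called to begin with, so they had no call to lose. The calls themselves were less stable. At maturation the call was kept in 12 of 15 alternatives for Ywhab and 5 of 15 for Ywhag. In Treat_MII against WT_FGO it was kept in 4 of 15 for Ywhab. At maturation, 2 members were called. Without the filter on low values, with centring on the median or without the trend 1 (Ywhab) was called, and with only the compared groups 0. Fits with 1 library left out are given above. By the study's 2-fold minimum with no test, 4 changed: Ywhab, Ywhag and Ywhah lower and Ywhaz higher, with Ywhah on 2 reads against 1. The share of all genes that pass this minimum was not taken in any comparison, so these counts have no background. In Treat_MII against WT_MII, 0 were called by limma under any alternative and 2 passed the 2-fold minimum. In Treat_MII against WT_FGO, 1 was called, and 0 were with a pseudocount of 0.1, centring, no trend or only the compared groups. With weights from reads 2 were called lower (Ywhag at −1.10), beside 1984 lower and 850 higher of 14545 genes. The 2-fold minimum was passed by 3.

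No pairing of libraries by replicate number was seen (deviations correlated at 0.034, 0.018 and 0.019 over 2706 genes). These deviations include counting error, so a pairing could go unseen. With the replicate block, 0 members were called in Treat_MII against WT_FGO, and the partners called lower went from 2 to 1 at maturation and from 2 to 1 in Treat_MII against WT_FGO (Ppp2ca and Camk2g, the latter also with quantile normalization, which left 1); it changed no other member's call.

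Directions turned only for values that had not passed the test. Ywhae turned to −0.077 with quantile normalization and −0.012 with read weights in Treat_MII against WT_MII. With 1 library left out, values at maturation, in Treat_MII against WT_MII and in Treat_MII against WT_FGO ranged from −0.058 to 0.48, −0.13 to 0.17 and −0.040 to 0.50 for Ywhae, from −3.29 to 1.60, −2.03 to 1.17 and −3.72 to 1.17 for Ywhah, from −0.059 to 5.23, −1.14 to 0.87 and −0.19 to 5.09 for Ywhaz and from −2.55 to 1.39, −1.49 to 1.28 and −2.65 to 1.28 for Sfn.

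Leaving out the members that share over 20% of their coding words moved the Ywhae share in WT_MII to 89.3% and the Treat_MII sum to 1233 FPKM. With runs of at least 2 G, 4, 6 and 4 members held the motif in the 5′-UTR, the coding sequence and the 3′-UTR. Of 14825 tested genes with a coding transcript, 58.7%, 87.4% and 65.5% held it in these regions. Ywhab was read from 0 to 14 reads a library and Ywhaz from 0 to 9. The causes of these shifts were not tested.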
